A study of Danio rerio with 6 samples.

Results

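The genes described here are 8 epidermal keratin, junction and regulator genes of the zebrafish: krt4, krt5, krt8, krt91, epcam, cldne, cldni and tp63. They were taken by symbol from the Ensembl rows of the count tables, where each symbol matched 1 row, so the set is 8 of 32520 Ensembl genes. Expression was measured by RNA sequencing of polyadenylated RNA in 6 libraries of GFP-positive cells at 48 hours post-fertilisation (day 2). In 3 libraries the fish carried the Tg(mpx:eGFP) reporter and had received a morpholino against znf711, a genotype labelled as znf711 knockdown. In the other 3 libraries the fish were Tg(mpx:eGFP) animals of wild-type genotype, and their treatment is labelled control with no further detail. The mpx promoter of the reporter, which is used by neutrophils, marks the cells in both groups, and the labels call the cells neutrophils. A morpholino is an antisense oligonucleotide that blocks translation or splicing of its target. The series' own design text names a znf711 mutant line where the sample labels name a morpholino, and the sample labels were followed. The sources used here do not give how many embryos went into a library.

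At this stage the larval zebrafish epidermis consists of an outer periderm and a basal layer. Its cells build keratin filaments, in which type I and type II keratins pair, and are joined to each other by tight junctions and desmosomes. The transcription factor gene tp63 marks the basal layer, and krt4, krt5, krt8 and claudin e (cldne) are used by epidermal cells. The keratin genes krt8 and krt18 also form the filaments of simple epithelia. None of these genes is known as a gene of mature neutrophils.

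Total counts were 1629804, 12093109 and 9550796 in znf711 morpholino replicates 1 to 3, against 7181804, 9311439 and 7635673 in control replicates 1 to 3. A count of 0 in a library allows up to 3 counts, which is between 0.248 and 1.84 CPM (counts per 1000000 counts) in the 6 libraries and covers counting error only. The neutrophil myeloperoxidase gene mpx had 1042, 29138 and 52220 counts in morpholino replicates 1 to 3 and 4404, 23801 and 16562 counts in control replicates 1 to 3, so replicate 1 of each group had the lowest mpx count. The targeted gene znf711 had 1, 120 and 182 counts in the morpholino group and 348, 134 and 60 counts in the controls, and a morpholino need not change the amount of its target transcript. Levels of single genes are given below as CPM scaled by the trimmed mean of M values (TMM), with the SD over 3 libraries.

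The 8 genes divided into 3 with no counts at all, 2 with few counts and 3 with enough counts for a test. The row of krt8 was by far the most abundant, the rows of krt91 and cldne varied several-fold or more between libraries of the same group, and krt5, epcam and cldni had 0 counts in all 6 libraries. No difference between the groups passed the test. The 3 rows at 0 all lie where the genome build has an alternate scaffold, and unnamed gene models on these scaffolds, at the positions of krt5 and epcam, did hold counts.

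The type II keratin gene krt8 (ENSDARG00000058358, GRCz11 chromosome 23, 10249626 to 10254288, minus strand) had 420, 2452 and 1686 counts in morpholino replicates 1 to 3 and 720, 1372 and 470 counts in control replicates 1 to 3. Its level was 225, 230 and 164 CPM in the morpholino libraries, against 85.1, 169 and 76.7 CPM in the control libraries. Control replicate 2 lay just above morpholino replicate 3, so the groups overlapped. The means were 206 ± 37.0 CPM in the morpholino group and 110 ± 50.9 CPM in controls. The log2 fold change was 0.90 ± 0.48 (approximate standard error), with an unadjusted p of 0.0779 and an adjusted p of 0.9999 by edgeR's quasi-likelihood test. All 16637 rows that passed the filter on low counts entered this fit and the Benjamini-Hochberg adjustment. The row of krt8 was also the steadiest of the tested members: the pooled SD of its log2 level within groups was 0.48, and 8.78% of all rows tested had a smaller one.

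The keratin gene krt91 (ENSDARG00000036830, chromosome 19, 5378563 to 5380770, minus strand) had 38, 347 and 25 counts in morpholino replicates 1 to 3 and 221, 539 and 4 counts in control replicates 1 to 3. Its level was 20.4, 32.5 and 2.43 CPM in the morpholino libraries, against 26.1, 66.3 and 0.653 CPM in the control libraries. In both groups replicate 2 was the highest and replicate 3 the lowest, though the labels tie a replicate number to nothing shared, and the control values enclosed the morpholino values. Its log2 fold change was -0.75 ± 1.25 (edgeR adjusted p = 0.9999). The pooled within-group SD of its log2 level was 2.54, larger than in 94.6% of the rows tested, where the median was 1.48.

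The tight junction gene cldne (ENSDARG00000043128, chromosome 15, 2638884 to 2640966, minus strand) had 0, 254 and 115 counts in morpholino replicates 1 to 3 and 267, 140 and 39 counts in control replicates 1 to 3. Its level was 0, 23.8 and 11.2 CPM in the morpholino libraries and 31.6, 17.2 and 6.36 CPM in the control libraries. Morpholino replicate 1 was the only one of the 6 libraries without a count. As the shallowest library, its 0 allows up to 1.84 CPM of all counts, a value without TMM scaling. The other morpholino libraries lay within the control range. For cldne the log2 fold change was -0.64 ± 1.42 (edgeR adjusted p = 0.9999).

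The type II keratin gene krt4 (ENSDARG00000017624, chromosome 6, 39308498 to 39313027, minus strand) had 0, 54 and 1 counts in morpholino replicates 1 to 3 and 5, 66 and 2 counts in control replicates 1 to 3. Replicate 2 of each group thus held nearly all of its counts, and the row was below the filter of the test. The gene of the basal keratinocyte factor, tp63 (ENSDARG00000044356, chromosome 6, 28795780 to 28914225, plus strand), had 0 counts in each morpholino library and 4, 0 and 1 counts in control replicates 1 to 3. No fold change is given for it, since its counts in most libraries were within what a count of 0 allows.

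No count in any library was found for 3 members. They were the keratin gene krt5 (ENSDARG00000058371, chromosome 23, 10173196 to 10177458, minus strand), the epithelial cell adhesion molecule gene epcam (ENSDARG00000040534, chromosome 13, 8840772 to 8843363, plus strand) and the claudin gene cldni (ENSDARG00000054616, chromosome 3, 30921246 to 30927002, plus strand). The last 639 bases of cldni overlap the coronin gene coro1a on the other strand, a leukocyte gene whose own row had 0 counts in every morpholino library and 0, 1 and 0 counts in control replicates 1 to 3. Whether the counting used strand is not known from the sources at hand, so reads within these 639 bases cannot be told apart. The rest of cldni lies outside this overlap.

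**Figure D1:**
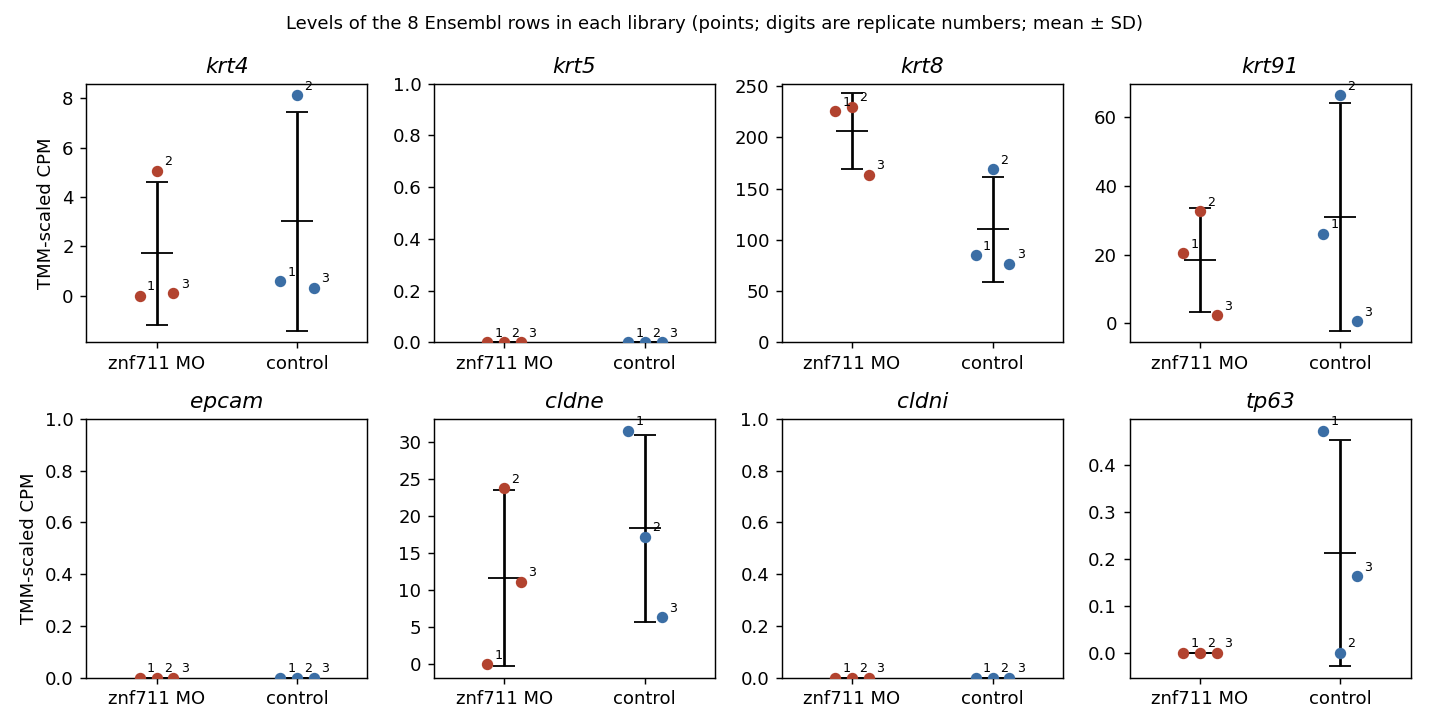
Levels of the 8 Ensembl rows (vertical axes: TMM-scaled CPM, a separate scale per gene) in 3 znf711 morpholino libraries (red, left) and 3 control libraries (blue, right). Points are libraries with their replicate number, and bars are the mean and SD. The row of krt8 lies between 164 and 230 CPM in the morpholino libraries and between 76.7 and 169 CPM in controls, and krt5, epcam and cldni are at 0 throughout.

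By edgeR, 0 of the 3 members tested passed in either direction, as did 0 of all 16637 rows (0%). At an unadjusted p under 0.05 there were 0 members and 174 rows, or 1.05% of those tested. DESeq2 also called 0 members, while it called 140 of the 20068 rows to which it gave an adjusted p (0.698%), 112 of them higher (0.558%) and 28 lower (0.14%). By limma-voom 0 members and 0 rows passed. Without a filter on low counts edgeR called 0 members and 2 of 43053 rows (0.00465%), both higher. The groups overlapped in all 3 tested members, while 7.44% of rows tested had groups that did not overlap. The median log2 fold change of the 3 tested members was -0.64, and that of all rows was -0.12. The common biological coefficient of variation, the spread between libraries of one group beyond counting error, was 1.09. The labels call the samples biological replicates without saying which embryos they came from, so the p-values measure the spread between these samples.

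Of the members, 6 lie where an alternate scaffold of GRCz11 covers the chromosome, as judged from the positions of the rows listed on those scaffolds. These were krt4, krt5, krt8, epcam, cldni and tp63, and 3 of the 6 had no counts. The 2 members outside, krt91 and cldne, both had counts. Across the chromosomes, 48.5% of 6055 Ensembl genes that overlap such a span had 0 counts in all 6 libraries, against 36.9% of 25965 other genes. On the scaffolds themselves the tables list unnamed gene models with counts of their own, which took between 5.16% and 6.41% of a library's total counts. A model was matched to a gene when both were on the same strand of the same chromosome, their starts and their ends were within 15000 bases, their spans differed by at most 20%, and the match was one to one. This gave 744 pairs. A match is one of position: the tables do not name the models, and no sequence was compared.

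Models matched 4 of the members, and each carried more counts than its named row. The match of krt8 lies on the minus strand of a chromosome 23 alternate scaffold, from 10245915 to 10250486, and spans 4572 bases where the gene spans 4663. Its start and end are offset from those of the gene by -3711 and -3802 bases. These offsets are 37 and -328 bases for the match of krt5 and -9640 and -9532 bases for that of krt4. The model matched to krt8 had 498, 5907 and 2989 counts in morpholino replicates 1 to 3 and 4233, 6085 and 1836 counts in control replicates 1 to 3. Its level was 267, 554 and 290 CPM in the morpholino libraries and 500.2, 748 and 299.6 CPM in the control libraries. The groups overlapped, at a log2 fold change of -0.48 ± 0.48 (edgeR adjusted p = 0.9999), opposite in sign to that of the named row.

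The row of krt8 held 45.8%, 29.3% and 36.1% of the joint counts of row and model in morpholino replicates 1 to 3, against 14.5%, 18.4% and 20.4% in control replicates 1 to 3. Every morpholino library was above every control library in this share, which was looked at after the values of both were seen. Among 247 pairs with at least 20 joint counts in each library, 9 (3.64%) had shares that did not overlap between the groups, 4 of them (1.62%) with the morpholino group above. With row and model added, krt8 was at 492, 784 and 454 CPM in morpholino replicates 1 to 3 and 584, 917 and 376 CPM in control replicates 1 to 3. The means were 577 ± 181 CPM in the morpholino group and 626 ± 273 CPM in controls, and the values of the groups interleaved. The log2 fold change of the joint counts was -0.12 ± 0.45 (edgeR adjusted p = 0.99997). The positive value of the named row was therefore not present in the joint counts, and what sets the share between row and model was not tested.

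The match of krt4 lies on the minus strand of a chromosome 6 alternate scaffold, from 39298858 to 39303495, and spans 4638 bases where the gene spans 4530. It had 8, 2226 and 412 counts in morpholino replicates 1 to 3 and 726, 876 and 478 counts in control replicates 1 to 3, where the named row had at most 66. Its level was 4.29, 209 and 39.99 CPM in the morpholino libraries, against 85.8, 108 and 78.0 CPM in the control libraries. The controls were close to each other and the morpholino libraries lay on both sides of them, with replicate 1 far below and replicate 2 above. This gave a log2 fold change of -0.10 ± 0.98 (edgeR adjusted p = 0.9999), which was 0.45 without morpholino replicate 1 and -2.02 without morpholino replicate 2.

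The match of krt5 (minus strand of the same chromosome 23 scaffold, from 10173233 to 10177130) had 78, 69 and 17 counts in morpholino replicates 1 to 3 and 68, 125 and 5 counts in control replicates 1 to 3. In CPM this was 41.9, 6.47 and 1.65 in the morpholino libraries and 8.04, 15.4 and 0.816 in the control libraries. Morpholino replicate 1 alone was above the control range. Its log2 fold change was 1.03 ± 1.52 (edgeR adjusted p = 0.9999), and -0.998 without that library.

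The match of epcam (plus strand of a chromosome 13 alternate scaffold, from 8842981 to 8845382) had 22, 252 and 86 counts in morpholino replicates 1 to 3 and 41, 53 and 95 counts in control replicates 1 to 3. In CPM this was 11.8, 23.6 and 8.35 in the morpholino libraries and 4.84, 6.52 and 15.5 in the control libraries. At 0.71 ± 1.34 its log2 fold change did not pass (edgeR adjusted p = 0.9999), and without morpholino replicate 2, the highest library, it was 0.068. For cldni and tp63 no model met the limits, and the low counts of their rows are given as listed.

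**Figure D2:**
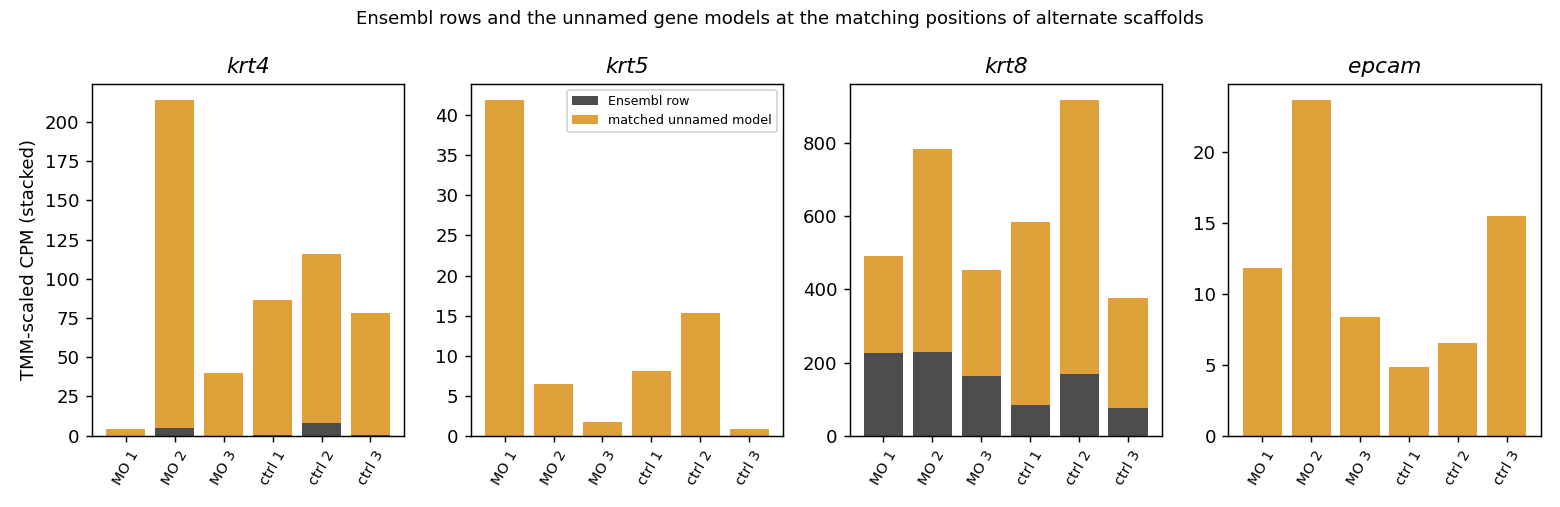
Stacked levels (TMM-scaled CPM, a separate scale per gene) of the named Ensembl row (dark) and of the unnamed model at the matching position of an alternate scaffold (yellow) for krt4, krt5, krt8 and epcam, with morpholino libraries left of control libraries. The models hold most or all of the joint counts, and the dark part of krt8 is 29.3% to 45.8% of the bar in morpholino libraries and 14.5% to 20.4% in controls.

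Levels can be set between genes only per length, and the listed lengths limit this. The listed length of krt91, 2769 bases, is longer than its span from 5378563 to 5380770. The row of krt8 is listed with 3791 bases and its model, of a similar span, with 2106. What the listed lengths cover is not known from the sources at hand. Per kilobase of listed length, the model matched to krt8 averaged 176 CPM in the morpholino group and 245 CPM in controls, and the named row of krt8 averaged 54.4 CPM in the morpholino group and 29.1 CPM in controls. The model matched to krt4 averaged 32.8 CPM per kilobase in the morpholino group and 35.3 in controls. Means well below these were those of the model matched to epcam, at 12.3 CPM per kilobase in the morpholino group and 7.54 in controls, and krt91, at 6.66 in the morpholino group and 11.2 in controls. This order of means did not hold in every morpholino library. Before division by length the krt4 model was at 84.3 ± 109 CPM in the morpholino group. In morpholino replicate 1 it was at 4.29 CPM, below the epcam model at 11.8 CPM. The gene cldne averaged 5.596 CPM per kilobase in the morpholino group and 8.82 in controls, and the model matched to krt5 averaged 5.31 in the morpholino group and 2.57 in controls. Among these last 4 the spread was wide: in the morpholino group each differed from its neighbour by less than the larger of their SDs, as did krt91, cldne and the epcam model in controls.

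**Figure D3:**
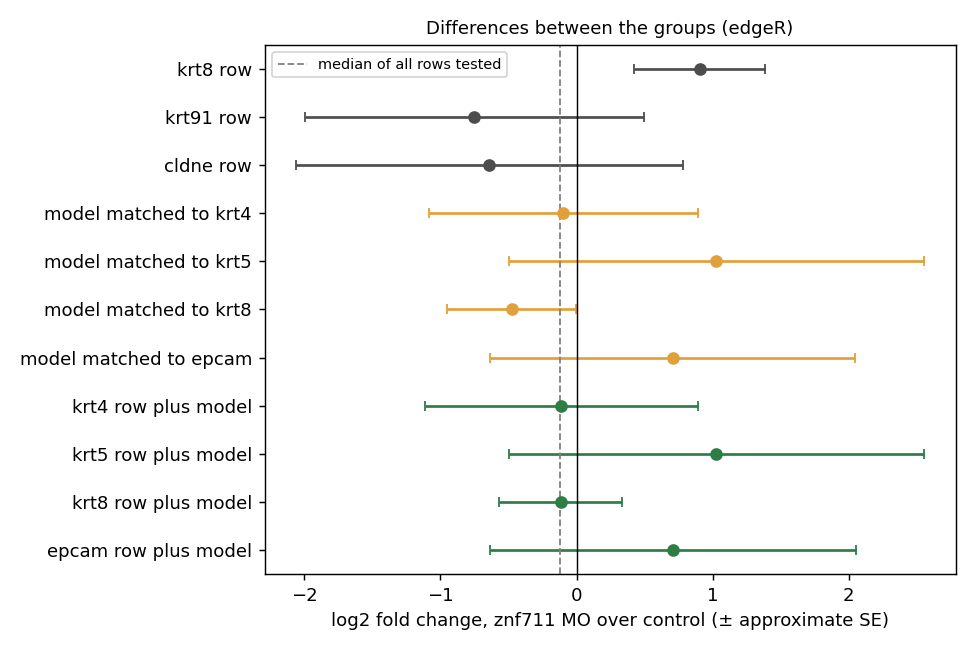
Log2 fold changes of the morpholino group over the control group (horizontal axis, points) with approximate standard errors (bars) for the 3 tested rows (dark), the 4 matched models (yellow) and the 4 joint counts (green). The row of krt8 stands at 0.90 and its joint counts at -0.12, next to the median of all rows at -0.12 (dashed line).

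Summed over the 8 Ensembl rows, the genes reached 281, 257 and 191 CPM of all counts in morpholino replicates 1 to 3, against 169, 227 and 67.6 CPM in control replicates 1 to 3. With the 4 matched models the sums were 653, 956 and 558 CPM in the morpholino libraries and 875, 994 and 384 CPM in the control libraries. The groups overlapped either way, and krt8 with its matched model made up most of the larger sum in each library. In these bulk samples, a change in the number of epidermal cells and a change in RNA per cell could not be told apart. The 13 listed neutrophil genes found in the tables summed, with matched models, to 4959, 15768 and 31832 CPM across the morpholino replicates and to 4094, 15341 and 16899 CPM across the control replicates. In each group replicate 3 had the highest neutrophil sum and the lowest sum of the 8 genes. With models the latter was 558 CPM in morpholino replicate 3 and 384 CPM in control replicate 3. Single neutrophil genes did not all follow that order. In control replicates 2 and 3, mpx was at 2926 and 2703 CPM and lcp1 at 2922 and 2257 CPM. The genes npsn, at 4173 and 4773 CPM, and il1b, at 970 and 2709 CPM, did follow it there. In morpholino replicates 2 and 3, lcp1 was at 3446 and 2695 CPM, against the order. There mpx, at 2731 and 5068 CPM, and il1b, at 1433 and 5629 CPM, followed it. Control replicate 1, with the lowest neutrophil sum of all, had 875 CPM for the 8 genes, below the 994 CPM of control replicate 2. Other epidermal lists, described below, were mixed. With models, the epidermal transcription factor and ionocyte lists were also lowest in replicate 3 of both groups. The keratin and ictacalcin list was not, at 396, 800 and 588 CPM in morpholino replicates 1 to 3. In control replicates 1 to 3 it was at 428, 572 and 671 CPM. Nor were the adherens junction and hemidesmosome lists, and the tight junction list was lowest there in controls only. Any link of the neutrophil sums with the epidermal sums was not tested. Of 15 listed connective tissue genes, 14 were tested, all with a negative log2 fold change and 0 called. They summed to 844, 816 and 891 CPM in the morpholino replicates, against 1999.8, 1411 and 1075 CPM in the control replicates. This was the one list whose sums did not overlap between the groups, and its part in the results for the epidermal genes was not tested.

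**Figure D4:**
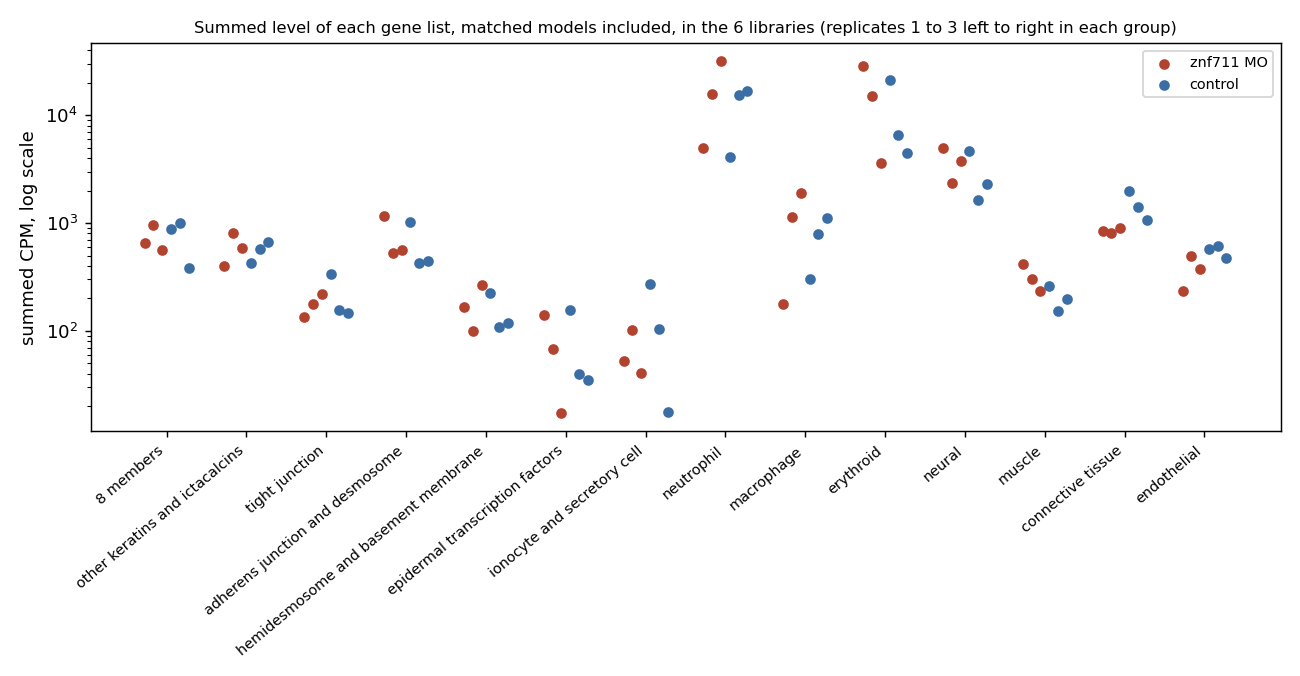
Summed CPM, on a log scale, of the 8 genes and of each other gene list, matched models included, in 3 morpholino libraries (red) and 3 control libraries (blue), with replicates 1 to 3 from left to right. The 8 genes sum to between 558 and 956 CPM in the morpholino libraries and between 384 and 994 CPM in controls. The neutrophil list lies far above these 8 genes in all 6 libraries. In replicate 1 of each group the erythroid list is above the neutrophil list, at 28498 CPM in the morpholino and 21215 CPM in the control library. In the other libraries it is below.

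Other keratins did not pass either. A list of 20 further keratin and ictacalcin genes had 9 members tested, 5 with a positive and 4 with a negative log2 fold change and a median of 0.056, and 0 passed in either direction. Its gene of highest mean CPM over the 6 libraries, without regard to length, was krt18b, which encodes a type I keratin that pairs with keratin 8 in simple epithelia. The krt18b row was at 31.1, 144 and 136 CPM in morpholino replicates 1 to 3 and 75.9, 100.9 and 235 CPM in control replicates 1 to 3, a log2 fold change of -0.40 ± 0.61. It too had a matched model, and the joint level was 413 ± 256 CPM in the morpholino group and 420.1 ± 223 CPM in controls (log2 fold change -0.025 ± 0.56, edgeR adjusted p = 0.99997). The krt18b row held 25.6%, 23.9% and 26.5% of these joint counts in morpholino replicates 1 to 3. In control replicates 1 to 3 it held 34.9%, 26.3% and 35.7%. The groups overlapped in this share, which leaned lower in the morpholino group, where that of krt8 was higher. Next by mean CPM over the 6 libraries, the enveloping layer keratin gene cyt1 was at 44.0, 60.7 and 0.388 CPM in morpholino replicates 1 to 3 and 8.39, 48.2 and 33.8 CPM in control replicates 1 to 3.

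The keratins did not share one order of libraries. Of the 9 tested genes of the keratin list, 5 had their lowest level of all 6 libraries in morpholino replicate 3. They were cyt1 and, chosen after their values were seen, krt92, krt94, krt97 and krtt1c19e, at 0.291 to 1.65 CPM there. Replicates 1 and 2 of the morpholino group held these 5 genes at 11.6 to 60.7 CPM, and the controls at 1.96 to 64.1 CPM. In control replicates 2 and 3, krt92 was at 2.58 and 1.96 CPM, near its 1.65 CPM in morpholino replicate 3. In morpholino replicate 3 the rows of krt8 and krt18b stood at 164 and 136 CPM. Ties included, that library was also lowest in 9 of 12 tested erythroid genes and 3 of 5 epidermal transcription factor genes. It was lowest in 1 of 14 tight junction genes, and its share over all rows was not counted. In morpholino replicate 1 it was krt18b, the related krt18a.1 and cldne that were lowest.

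Of the tight junction genes 0 passed. Of 27 listed genes 14 were tested, 3 with a positive and 11 with a negative log2 fold change, a median of -0.66 beside -0.12 for all rows, and 0 called. In 10 of the 14, morpholino replicate 1, the shallowest library, had the lowest level. The share differed between the other lists. Ties included, this library was lowest in 7 of 11 tested hemidesmosome and basement membrane genes and 6 of 8 macrophage genes. It was lowest in 3 of 5 ionocyte and secretory cell genes. The same held in 7 of 14 connective tissue genes, 6 of 14 endothelial genes and 7 of 17 adherens junction and desmosome genes. Shares were lower in the epidermal transcription factor (2 of 5), muscle (5 of 13), neural (3 of 17), erythroid (2 of 12) and neutrophil (2 of 11) lists. Of the 9 tested genes of the keratin list it was lowest in 2. The share over all rows tested was not counted. The claudin gene cldnb was at 28.7 ± 18.3 CPM in the morpholino group and 30.3 ± 16.1 CPM in controls, and the junctional adhesion molecule gene f11r.1 was at 17.9 ± 19.4 CPM in the morpholino group and 32.8 ± 16.9 CPM in controls. Of 20 listed adherens junction and desmosome genes 17 were tested, 9 positive and 8 negative with a median of 0.022. In 2 of these 17 every morpholino library was below every control library and in 0 above, where 5.35% and 2.09% of all rows were so placed. The beta-catenin gene ctnnb1 was at 433 ± 221 CPM in the morpholino group and 362 ± 137 CPM in controls, and the p120 catenin gene ctnnd1 at 60.01 ± 43.4 CPM in the morpholino group and 30.3 ± 2.72 CPM in controls.

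**Figure D5:**
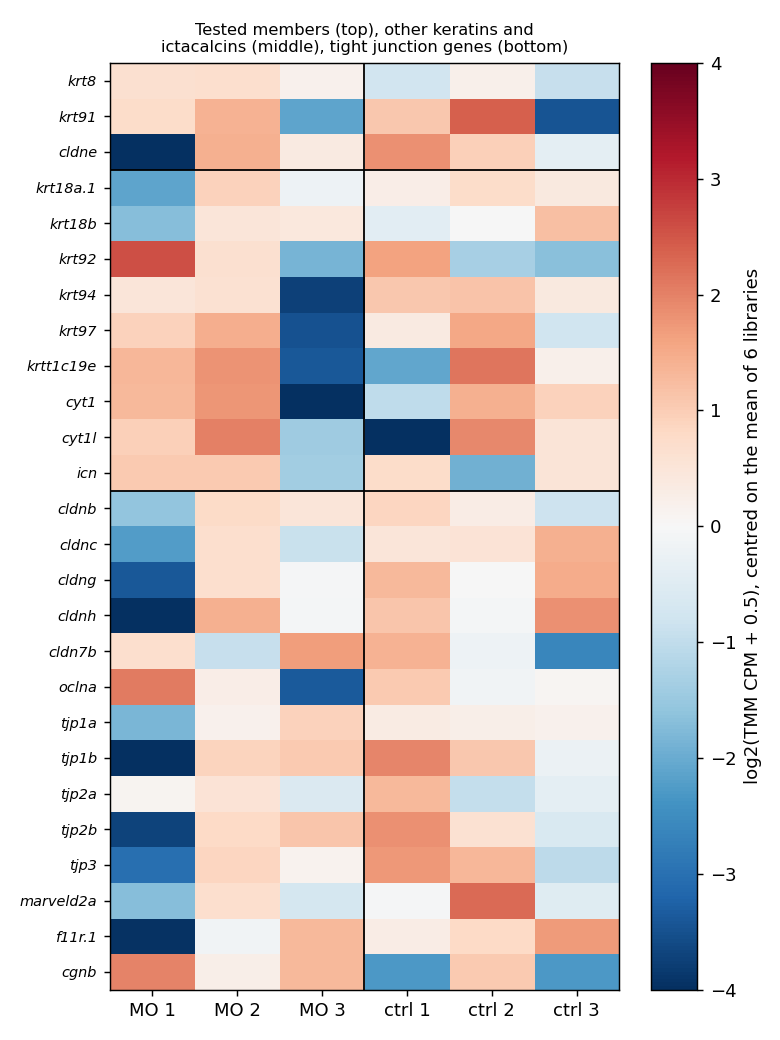
Log2 levels, centred on each gene's mean over the 6 libraries (colour), of the tested members, the tested genes of the keratin and ictacalcin list and those of the tight junction list (rows), with morpholino libraries left of control libraries. Several keratins of the middle block are lowest in morpholino replicate 3, while most tight junction genes of the lower block are lowest in morpholino replicate 1.

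The remaining epidermal lists gave 0 calls in either direction. The list of genes of hemidesmosomes and the basement membrane had 11 of 18 tested, 5 positive and 6 negative, with a median log2 fold change of -0.13. Its plectin genes pleca and plecb were at 39.3 ± 33.3 and 39.5 ± 48.0 CPM in the morpholino group, against 48.2 ± 15.4 and 43.6 ± 10.8 CPM in controls. Of 13 epidermal transcription factor genes 5 were tested, 3 positive and 2 negative. The highest mean CPM over the 6 libraries, again without regard to length, was that of tfap2a, which also acts in the neural crest, at 41.9 ± 37.3 CPM in the morpholino group and 52.0 ± 32.9 CPM in controls, and tfap2c, next by that mean, was at 6.28 ± 9.90 CPM in the morpholino group and 7.09 ± 9.84 CPM in controls. Among 18 genes of ionocytes and secretory cells 5 were tested, 2 positive and 3 negative. The sodium pump gene atp1a1a.2 was at 9.08 ± 14.1 CPM in the morpholino group and 55.2 ± 56.7 CPM in controls, a log2 fold change of -2.57 ± 2.06, and had no counts in morpholino replicate 1 or control replicate 3. The disulfide isomerase gene agr2 of mucous cells was at 22.7 ± 17.5 CPM in the morpholino group and 22.2 ± 6.88 CPM in controls.

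None of the 6 genes whose profile was nearest to the mean profile of krt8, krt91 and cldne is named as a keratin or claudin gene. Nearness was the root mean square difference of log2(TMM CPM + 0.5), centred on each gene's mean, over 6 libraries, and it was 1.06, 1.32 and 1.53 for krt8, krt91 and cldne themselves. The nearest was the bone morphogenetic protein receptor gene bmpr1ba at 0.19, with 3, 79 and 27 counts in morpholino replicates 1 to 3 and 69, 76 and 7 counts in control replicates 1 to 3. Next came si:dkey-183p4.10 at 0.29, klhl32 at 0.31, the atypical cadherin gene fat1a at 0.33, and the splicing factor gene prpf31 and si:ch211-259g3.4, both at 0.34. The profile has its highest values in control replicate 2 and morpholino replicate 2 and its lowest in control replicate 3, and most of these genes had few counts.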

How the data were processed

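Per the file headers, the authors deposited raw read counts per gene, in 1 table of 59330 rows per sample: 32520 Ensembl genes and 26810 unnamed gene models. Among tools, HISAT2 2.0.5, Trimmomatic, DESeq2 1.16.1, HTSeq and edgeR stand, with no role or order, in the submitters' processing notes, as does the build GRCz11. The sources used here do not say which annotation release was used, whether counting used strand, or how reads with several positions were treated. A read that fits a chromosome and an alternate scaffold may thus be lost or counted on either.

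Sample titles gave the groups and replicate numbers. Counts were tested with edgeR 4.0.16 (R 4.3.3): filterByExpr with a minimum count of 10, TMM scaling, a robust quasi-likelihood fit with group as the only term, and Benjamini-Hochberg adjustment over all rows at 0.05. Approximate standard errors are |log2 fold change| over the root of the F statistic. Sums over a list are in CPM of all counts, without TMM. Alternatives were DESeq2 1.42.0, limma-voom (limma 3.58.1), other scalings and filters, subsets of rows, leaving out libraries, and a replicate block. The joint counts of rows and matched models were added after the data were seen. The code was tested on simulated data, with a recovery required only at a smaller spread than that of these libraries. That test does not say how many true changes would be called here.

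The members and gene lists were chosen with earlier results of these data known. Beyond the members, the rule named the 2 genes of highest mean TMM-scaled CPM over the 6 libraries, not per length, from each list, mpx, znf711 and the 6 nearest profiles; for the lists of other cell types only genes that a result turns on are given. No protein or promoter sequences were used here.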

Additional observations from a re-analysis of the deposited data

How the results depend on the processing

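No member was called by edgeR, DESeq2 or limma-voom, in any scaling, filter or subset of libraries run, or with matched models added. The count of all rows called, 0 in edgeR, was 140 in DESeq2, 2 without a filter on low counts and 0 to 2 when single libraries were left out (1 without control replicate 1, 2 without morpholino replicate 3). Leaving out single libraries moved the members' median log2 fold change between -1.63 and 0.43. Each median was over the 3 or 4 members that passed the filter in that fit. The krt8 row stayed between 0.65 and 1.31 in those fits, but was -0.12 with its model added, and that joint value ranged from -0.49 to 0.24. For krt91 the range was -1.63 to 0.43, the upper end without control replicate 2, and for cldne -1.67 to -0.0056. The models matched to krt4, krt5, krt8 and epcam ranged from -2.02 to 0.45, -0.998 to 1.76, -0.97 to -0.12 and 0.068 to 1.34, and the joint counts of krt4 and krt5 from -2.06 to 0.46 and -0.98 to 1.76. Without replicate 1 of both groups, cldne was at 0.57, the krt4 model at 0.42, joint krt4 at 0.39, the krt5 model at -0.995 and joint krt5 at -0.99. The krt5 model was at -0.016 in limma-voom. With a replicate block krt91 turned to 0.0497, which was then also the members' median, the krt4 model moved to -1.24 and joint krt4 to -1.26. The causes of these changes were not tested.

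The replicate numbers were not treated as pairs. Deviations of same-numbered libraries from their group means correlated at 0.13, 0.11 and 0.01 for numbers 1 to 3. Not every library correlated best with its own number, since morpholino replicate 3 did so with control replicate 2 (0.075), and the replicate block called 0 rows and 0 members. The summed level of the 8 rows averaged 243 ± 46.4 CPM in the morpholino group and 155 ± 80.9 CPM in controls. It averaged 722 ± 208 CPM in the morpholino group and 751 ± 324 CPM in controls with matched models, and 294 ± 72.3 CPM in the morpholino group and 187 ± 85.5 CPM in controls without mitochondrial, haemoglobin and ribosomal protein genes. Depth limits most of all morpholino replicate 1, where a count of 0 allows 1.84 CPM, and the row of tp63 cannot be compared between the groups at this depth. Nor can the row of krt4, whose counts lay mostly in 1 library of each group. It had 54 counts in morpholino replicate 2, 66 in control replicate 2 and at most 5 elsewhere.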

Other observations

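For some genes outside the epidermis, unnamed models at matching positions of alternate scaffolds also held counts. These were looked at after the data were seen, and the matches are of position only. The haem synthesis gene alas2 had 1, 0 and 0 counts in its named row in morpholino replicates 1 to 3 and 0 in each control library, while its matched model had 431, 951 and 258 counts in the morpholino libraries and 1304, 750 and 168 counts in the control libraries. The embryonic globin gene hbbe2 had between 2.72% and 7.70% of its joint counts in the named row in morpholino libraries and between 2.57% and 6.29% in controls. For the globin gene hbbe3 the share was 27.8% to 45.7% in morpholino libraries and 38.9% to 50.7% in controls, and for the proteoglycan gene srgn 69.4% to 78.8% in morpholino libraries and 64.7% to 78.4% in controls. In these 4 genes the shares of the groups overlapped, as they did in most pairs. Not every matched model held counts, since the named row of the neutrophil gene cebp1 had 100% of its joint counts in each library. Of 247 pairs with at least 20 joint counts in each library, 9 (3.64%) did not overlap, krt8 among them.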
